A study of Mus musculus with 18 samples.

Results

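The data described here are the RNA profiles of mouse T-cell acute lymphoblastic leukaemia (T-ALL) in spleens collected when the mice reached their humane endpoint, in the libraries labelled as the first wave of Acly knockout leukaemia and in the control libraries. Both groups started from the same kind of cells, T-ALL carrying a conditional Acly knockout allele, which were given intravenously to sub-lethally irradiated mice and are labelled C57BL/6. The knockout mice received 3 mg of tamoxifen per mouse in corn oil into the peritoneum 48 h after transplantation, and the control mice, called WT below, received corn oil alone, so the loss of Acly and the exposure to tamoxifen cannot be told apart in this comparison. The first wave has 3 libraries and WT has 4, or 7 of the 18 libraries of the series. A second wave of knockout leukaemia, with 3 libraries of the same treatment, was deposited in the same table and is used here to estimate the spread and to show where the first wave differs. What separates the waves, which recombinase acts on the allele, which exons are removed and how many primary leukaemias were transplanted are not given in the labels used here. Spleens were dissociated, red cells were lysed, and RNA came from the remaining bulk suspension, in which fewer cells of a type and less RNA per cell cannot be told apart. All genes with a mean normalized count of at least 10 over the 10 survival libraries were taken, 14286 of the 18953 genes in the table.

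ACLY is the cytosolic enzyme that splits citrate exported from mitochondria into acetyl-CoA and oxaloacetate. The acetyl-CoA feeds fatty acid and cholesterol synthesis and the acetylation of histones, and ACSS2 can supply the same pool from acetate. T-ALL is a leukaemia of immature T cells that commonly depends on NOTCH1 signalling, and it expresses thymocyte genes such as Rag1, Ptcra and Cd3e.

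The deposited values are gene counts divided by size factors, called normalized counts. They sum to between 9.19 M and 10.4 M (M, mega) per library. From the spacing of the low values, the libraries hold an estimated 7.86 M to 12.7 M assigned reads, with first-wave replicates 1 and 3 and WT replicate 1 near the lower end. WT replicates 1 and 2 stood apart from the other 5 libraries of the comparison. On the first principal component of the 10 libraries, which held 25.01% of the variance, WT replicates 1 and 2 lay at 78.6 and 67.2, WT replicates 3 and 4 at -18.8 and 4.16, and the first wave between -15.8 and -3.65. The correlation of log2 values across genes was 0.945 to 0.954 between first-wave libraries, 0.939 to 0.949 between first-wave libraries and WT replicates 3 and 4, and 0.903 to 0.923 between first-wave libraries and WT replicates 1 and 2. Most list medians and genes described in full are therefore also given without WT replicates 1 and 2. Nothing in the labels says that each library came from a separate primary leukaemia, so p-values measure only the spread between these libraries.

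**Figure D1:**
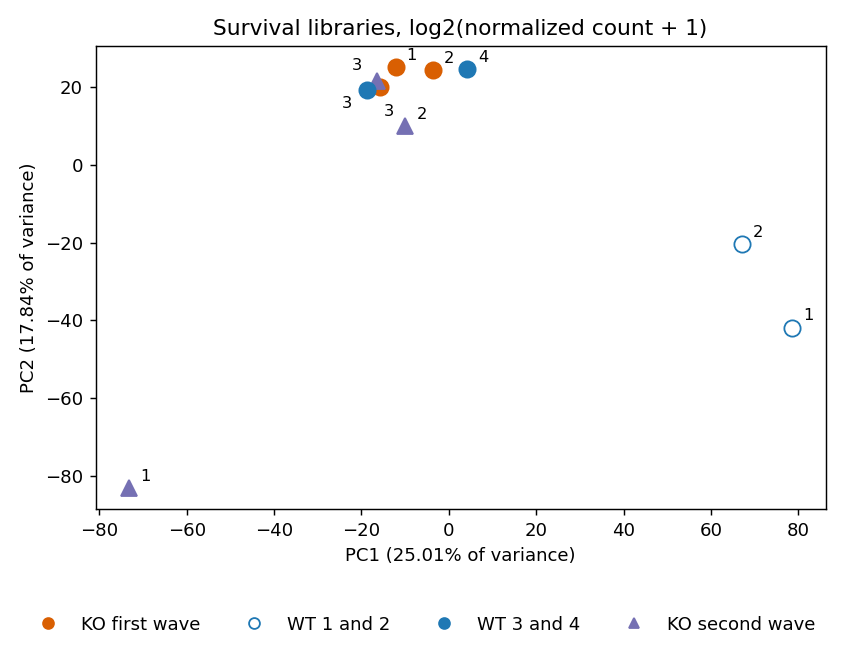
Each point is 1 of the 10 survival libraries on the first 2 principal components (x axis 25.01% and y axis 17.84% of the variance of log2(normalized count + 1) over 14286 genes), numbered by replicate. The first wave and WT replicates 3 and 4 sit together at the top, with second-wave replicates 2 and 3 near them. WT replicates 1 and 2 sit at 78.6 and 67.2 on the x axis, and second-wave replicate 1 sits alone at -73.2.

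Acly was the gene with the smallest p-value in the comparison. Its normalized count was 725, 656 and 800 in the 3 first-wave libraries and 1722, 1727, 1854 and 1486 in the 4 WT libraries. The groups did not overlap, and the highest first-wave library lay 1.86-fold below the lowest WT library. The first-wave mean of 727 ± 71.8 (SD, n = 3) was 42.8% of the WT mean of 1697 ± 154 (SD, n = 4). On the log2(normalized count + 1) scale the first wave was lower by a difference of -1.22 (SE 0.17), with an adjusted p of 0.0562 in limma and an exact two-sided permutation p of 0.0286, the smallest that 3 against 4 libraries can give. Acly therefore just missed the threshold of 0.05 after adjustment over all genes. The second wave had 505, 569 and 655, of which the highest lay just under the lowest first-wave library, and the limma difference between the waves was -0.34 (SE 0.18, adjusted p = 0.860). The gene lies on the minus strand of chr11:100476353-100528000 in GRCm38. Leaving out WT replicates 1 and 2 gave -1.19 (limma adjusted p = 0.187), and leaving out 1 library at a time gave differences from -1.29 to -1.15 with adjusted p-values from 0.0251, without second-wave replicate 3, to 0.595, without first-wave replicate 1.

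No gene of the 14286 tested (0%) passed the limma threshold between the first wave and WT, and after Acly the next-smallest adjusted p was 0.617. At an unadjusted p under 0.05, 632 genes were higher in the first wave (4.42%) and 514 were lower (3.6%). The libraries of the 2 groups did not overlap in 629 genes that were higher in the first wave (4.4%) and in 514 that were lower (3.6%). The gap between the nearest first-wave and WT library reached 1.5-fold in 16 genes that were higher (0.112%) and 30 that were lower (0.21%), with Acly among the lower ones. The median SD of a gene's log2 value was 0.28 within the first wave and 0.43 within WT, but 0.28 for WT replicates 3 and 4 alone and 0.23 for WT replicates 1 and 2 alone. Without WT replicates 1 and 2, 3 genes passed (0.021%), the predicted gene Gm10778, the predicted gene Gm4294 and the ribosomal protein pseudogene Rpl30-ps9, whose reads can be shared with near-identical copies.

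The 10 named genes that were lowest in the first wave relative to WT came from those whose groups did not overlap, with an unadjusted limma p under 0.05 and a group mean of 100 or more on the higher side. Antxr2, a receptor for collagen and laminin that anthrax toxin also uses, had 44.3, 49.5 and 46.4 in the first wave and 136, 102, 148 and 152 in WT. Its nearest libraries were 2.04-fold apart, more than for Acly, and all 4 WT libraries stood at a like level. The log2 difference was -1.49 (SE 0.36, limma adjusted p = 0.617) and -1.66 without WT replicates 1 and 2. In the second wave Antxr2 had 69.3, 62.8 and 28.7, also below every WT library. The gene lies at chr5:97882783-98031043 (GRCm38).

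Cdc42bpa, a kinase that acts downstream of the small GTPase CDC42 on actomyosin, had 64.1, 125 and 100 in the first wave and 264, 183, 213 and 289 in WT. The 2 groups did not overlap, and the second wave, at 162, 188 and 210, lay between them with some overlap with WT. The log2 difference from WT was -1.32 (SE 0.29, limma unadjusted p = 0.000404, adjusted p = 0.617), and -1.41 without WT replicates 1 and 2. Fbxw8, the F-box subunit of a cullin ubiquitin ligase, had 110, 113 and 42.8 in the first wave and 220, 162, 267 and 166 in WT, a difference of -1.28, with 325, 230 and 178 in the second wave. For these 2 genes and Antxr2 the difference was at least as large without WT replicates 1 and 2.

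Prkrip1, which encodes a nuclear protein that binds the double-stranded RNA kinase PKR, had the lowest difference of these 10. It was at 59.2, 40.2 and 51.7 in the first wave, at 265 and 314 in WT replicates 1 and 2, and at 108 and 119 in WT replicates 3 and 4. The second wave had 121, 112 and 123, the level of WT replicates 3 and 4. The log2 difference between the first wave and WT was -1.84 (SE 0.38, limma adjusted p = 0.617), which became -1.17 without WT replicates 1 and 2. Arap2, a GTPase-activating protein for ARF proteins, also had WT replicates 1 and 2 highest, with 499, 545 and 362 in the first wave, 2114 and 1583 in WT replicates 1 and 2, and 852 and 626 in WT replicates 3 and 4. Of the others among the 10 lowest, Igf2bp2, an mRNA-binding protein, differed by -1.34, Gstt3, a glutathione transferase, by -1.36, the kinase gene Rps6ka2 by -1.39 and Pp2d1, which encodes a phosphatase-like protein, by -1.64. Without WT replicates 1 and 2 the differences of the 10 were -1.66 to -0.66. Their sign could not change, because the 10 were picked for having no overlap with any WT library.

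The 10 named genes that were highest in the first wave relative to WT had a different pattern among the WT libraries. In 9 of them the first wave lay above WT replicates 3 and 4, and WT replicates 1 and 2 lay lower still. The log2 difference from WT replicates 3 and 4 alone varied among the 9, from 0.22 for Zfp712 to 1.01 for Cpsf4l. Kdm6b, which encodes a demethylase of histone H3 lysine 27, had 946, 784 and 600 in the first wave, 127 and 167 in WT replicates 1 and 2, and 471 and 425 in WT replicates 3 and 4. Its log2 difference was 1.58 (SE 0.39, limma adjusted p = 0.617), and 0.77 without WT replicates 1 and 2. Pura, a single-stranded DNA-binding protein, had 1880, 1906 and 1783 in the first wave, 248 and 254 in WT replicates 1 and 2, and 1401 and 1439 in WT replicates 3 and 4. The difference for Pura was 1.63, and 0.39 without WT replicates 1 and 2. Iltifb, Nabp1, Zfp712, Cpne1, Klhl42, Cpsf4l and Coq3, a methyltransferase of ubiquinone synthesis, differed by 1.54 to 2.14 with all WT libraries and by 0.22 to 1.01 without WT replicates 1 and 2. Iltifb is a near-identical copy of the interleukin-22 gene, so its count is uncertain.

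Abcb1a, one of the mouse genes for the drug efflux pump P-glycoprotein, was the exception. All 4 WT libraries were low, at 31.3, 35.7, 40.1 and 36.6, whereas the first wave had 247, 49.2 and 366. First-wave replicate 2 was thus near WT while the other two were far above it. The difference of 2.17 (SE 0.71, limma adjusted p = 0.617) was 2.08 without WT replicates 1 and 2. In the second wave, replicate 2 had 223 and replicates 1 and 3 had 34.7 and 26.4.

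**Figure D2:**
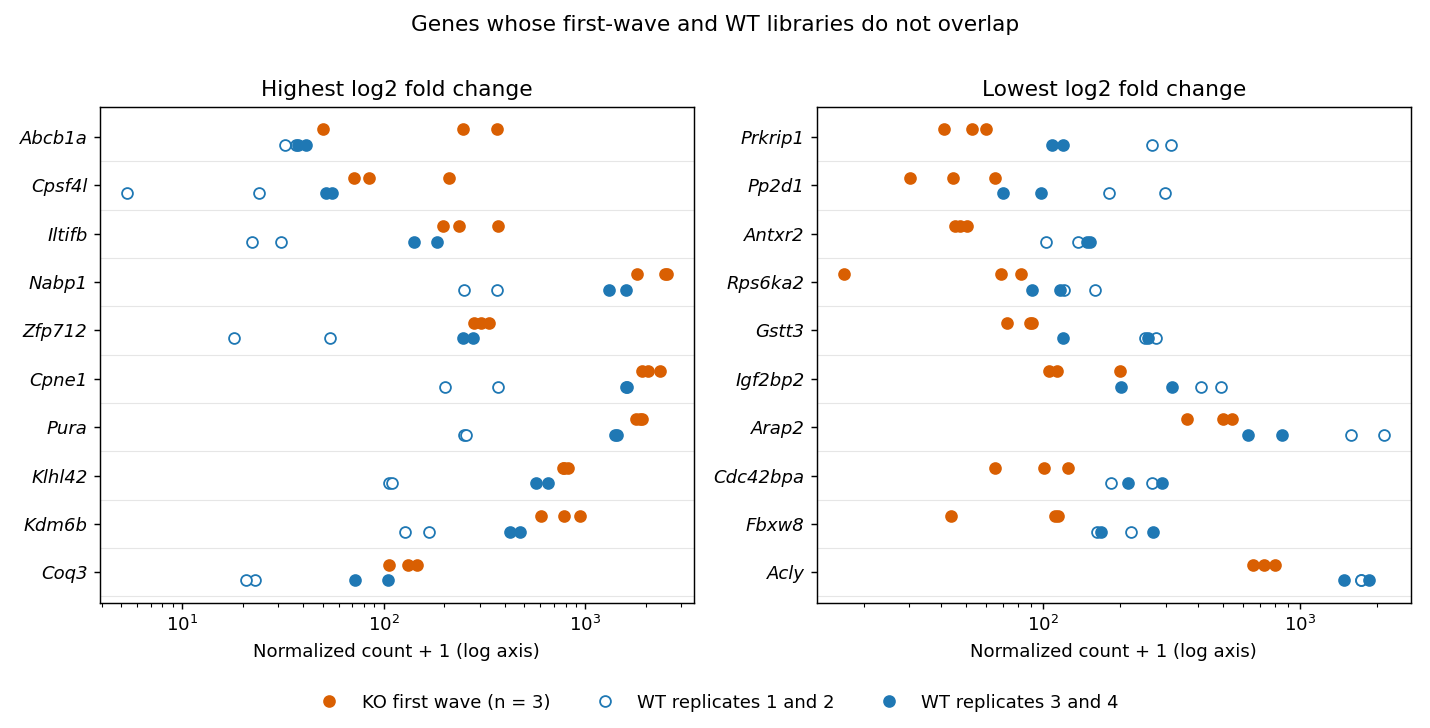
Normalized count + 1 (x axis, log scale) of the named genes with the most positive (left) and most negative (right) differences, 10 each, all without overlap between groups; each point is 1 library. Acly and Antxr2 show 4 WT libraries at a like level, while most of the highest genes have WT replicates 1 and 2 (open circles) far below WT replicates 3 and 4.

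The same split of WT ran through the genes whose groups did not overlap. WT replicates 1 and 2 were both below WT replicates 3 and 4 in 48.2% of the 629 genes that were higher in the first wave, against 26.4% of all genes tested. They were both above in 38.7% of the 514 genes that were lower, against 25.4% of all genes. The genes with the smallest p-values beyond those above were Ate1, an arginyltransferase, Vamp3, a vesicle fusion protein, H2-Q7 and Pak2. Pak2, a kinase activated by RAC and CDC42, had 8092, 7651 and 7198 in the first wave and 3647, 4022, 5824 and 5734 in WT, a difference of 0.70 (SE 0.17, limma adjusted p = 0.617). Vamp3 had 465, 448 and 462 in the first wave and 1331, 1320, 591 and 946 in WT. Here too the difference was smaller without WT replicates 1 and 2, at 0.40 for Pak2 and -0.71 for Vamp3.

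Acetyl-CoA supply genes were examined next, in a list of 18 measured members. Acly was the only member with an unadjusted limma p under 0.05 or with groups that did not overlap. Among all genes 3.6% were lower by either measure. Of the 18 members, 14 had a positive difference. The median of the list was 0.10, and 0.12 without WT replicates 1 and 2, beside 0.01 over all genes tested, where 7234 were positive and 7051 negative. Acat2, a cytosolic thiolase of acetoacetyl-CoA synthesis, had 270, 219 and 264 in the first wave and 158, 101, 267 and 198 in WT. Mpc2, a subunit of the mitochondrial pyruvate carrier, had 347, 256 and 205 in the first wave and 459, 403, 358 and 290 in WT. In both genes the groups overlapped.

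Genes of cholesterol synthesis, which uses cytosolic acetyl-CoA, had a median of 0.05 over 24 members, and 0.15 without WT replicates 1 and 2. Of the 24, 2 were higher at an unadjusted p under 0.05, beside 4.42% of all genes, and 1 was lower, beside 3.6%, and no member passed the adjusted threshold. Hmgcs1, the synthase that makes HMG-CoA, had 1170, 1114 and 959 in the first wave and 693, 753, 908 and 706 in WT, a difference of 0.50 (SE 0.21). Idi1, the isopentenyl diphosphate isomerase, had 1440, 1308 and 1128 in the first wave and 729, 769, 948 and 930 in WT, a difference of 0.62 (SE 0.22). Both genes were above WT in every first-wave library, so leaving out WT libraries could not change the sign. The differences were 0.43 and 0.45 without WT replicates 1 and 2. With all WT libraries the limma adjusted p was 0.617 for each. Scap, the sterol-sensing escort of SREBP, had 432, 405 and 508 against 702, 683, 496 and 635, with overlap.

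Fatty acid synthesis genes gave a median of -0.12 over 21 members that turned to 0.18 without WT replicates 1 and 2. Hacd3, a dehydratase of fatty acid elongation, had 670, 591 and 660 in the first wave and 318, 338, 473 and 386 in WT. The difference was 0.77 (SE 0.19, limma unadjusted p = 0.00122, adjusted p = 0.617), the groups did not overlap, and it was 0.58 without WT replicates 1 and 2. Fasn, the fatty acid synthase, had 1925, 1476 and 1515 in the first wave and 991, 802, 1557 and 1281 in WT, so WT replicate 3 overlapped the first wave, and the difference of 0.54 was 0.20 without WT replicates 1 and 2. Acsl1, which activates long-chain fatty acids, was at 103, 195 and 224 in the first wave and at 475, 239, 307 and 241 in WT, a difference of -0.87 (SE 0.33). Fatty acid oxidation genes had a median of -0.08 over 20 members, and 0.07 without WT replicates 1 and 2. None had an unadjusted p under 0.05, beside 4.42% of all genes in the higher and 3.6% in the lower direction.

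Glycolysis genes had a median of 0.20 over 19 members, TCA cycle genes 0.02 over 21 and nuclear genes of oxidative phosphorylation 0.12 over 41. Without WT replicates 1 and 2 these medians were 0.16, -0.03 and 0.20. No more than 1 member in each of these had an unadjusted limma p under 0.05. Among all genes the share was 4.42% in the higher and 3.6% in the lower direction. Dlst, the succinyltransferase subunit of the oxoglutarate dehydrogenase complex, had 1524, 1602 and 1761 in the first wave and 2551, 1908, 1885 and 2627 in WT, without overlap. Of 13 mitochondrially encoded genes 11 were positive, with a median of 0.11 that became 0.34 without WT replicates 1 and 2. WT replicate 4 had the lowest share of mitochondrial RNA of all libraries, at 2.09% against 2.87% to 3.36% in the rest, and its part in that median was not tested. Histone acetylation enzymes had a median of 0.03 over 30 members, and -0.03 without WT replicates 1 and 2. Hdac10, a deacetylase of polyamines, had 151, 161 and 174 in the first wave and 43.1, 67.1, 89.4 and 130 in WT, and Brd3, a reader of acetylated histones, had 2641, 2182 and 2134 against 1385, 1375, 2170 and 1595.

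Of 20 measured NOTCH1 targets 18 were positive, with a median of 0.58, the highest of the 37 lists. Without WT replicates 1 and 2 the median was 0.08 and 12 of 20 were positive. Nrarp, a feedback inhibitor of NOTCH, had 1072, 829 and 861 in the first wave, 217 and 199 in WT replicates 1 and 2, and 864 and 705 in WT replicates 3 and 4, of which replicate 3 overlapped the first wave. Ptcra, the alpha chain that pairs with a new beta chain at the pre-TCR checkpoint, had 1596, 1235 and 1123 in the first wave and 481, 554, 1060 and 1316 in WT, and Tspan2 had 2854, 2746 and 3030 against 790, 917, 2632 and 2884. These were the 3 of 20 targets with an unadjusted limma p under 0.05, beside 4.42% of all genes in that direction, and none passed the adjusted threshold.

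Of 23 measured T-lineage transcription factors 19 were positive, 6 had an unadjusted limma p under 0.05 in the higher direction, beside 4.42% of all genes, and 4 did not overlap with WT, beside 4.4%. The median was 0.39 with all WT libraries and 0.09 without WT replicates 1 and 2. Myb, a factor of immature blood cells that drives many T-ALLs, had 8614, 9546 and 10141 in the first wave and 7682, 6393, 7078 and 6512 in WT. Every first-wave library was above every WT library, with a difference of 0.45 (SE 0.15, limma adjusted p = 0.617) and of 0.47 without WT replicates 1 and 2. Lef1, a partner of beta-catenin in thymocytes, had 12661, 11957 and 11300 in the first wave and 8056, 7362, 10657 and 8322 in WT, a difference of 0.49 that was 0.34 without WT replicates 1 and 2. Bcl11b, which fixes T-cell commitment, had 9083, 9158 and 8189 in the first wave, 2717 and 3162 in WT replicates 1 and 2, and 7966 and 6736 in WT replicates 3 and 4. Its difference of 0.92 was 0.26 without WT replicates 1 and 2.

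The recombinase genes had the same order as Bcl11b. Rag1 was at 42389, 37270 and 29233 in the first wave and at 10604, 12884, 28723 and 31477 in WT, and Rag2 was at 1829, 1774 and 1273 against 213, 437, 1145 and 1481. In both, WT replicate 4 overlapped the first wave, and the differences of 0.94 and 1.35 were 0.25 and 0.30 without WT replicates 1 and 2. The V(D)J recombination list had a median of 0.14 over 10 members, and -0.04 without WT replicates 1 and 2. CD3 and T-cell receptor signalling genes had a median of 0.09 over 20 members, and -0.03 without WT replicates 1 and 2. None had an unadjusted p under 0.05, beside 4.42% of all genes in the higher and 3.6% in the lower direction. Genes of NOTCH receptors and their machinery had a median of 0.03 over 18 members, and 0.07 without WT replicates 1 and 2, and Notch2 had 456, 508 and 453 in the first wave and 606, 536, 597 and 546 in WT.

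**Figure D3:**
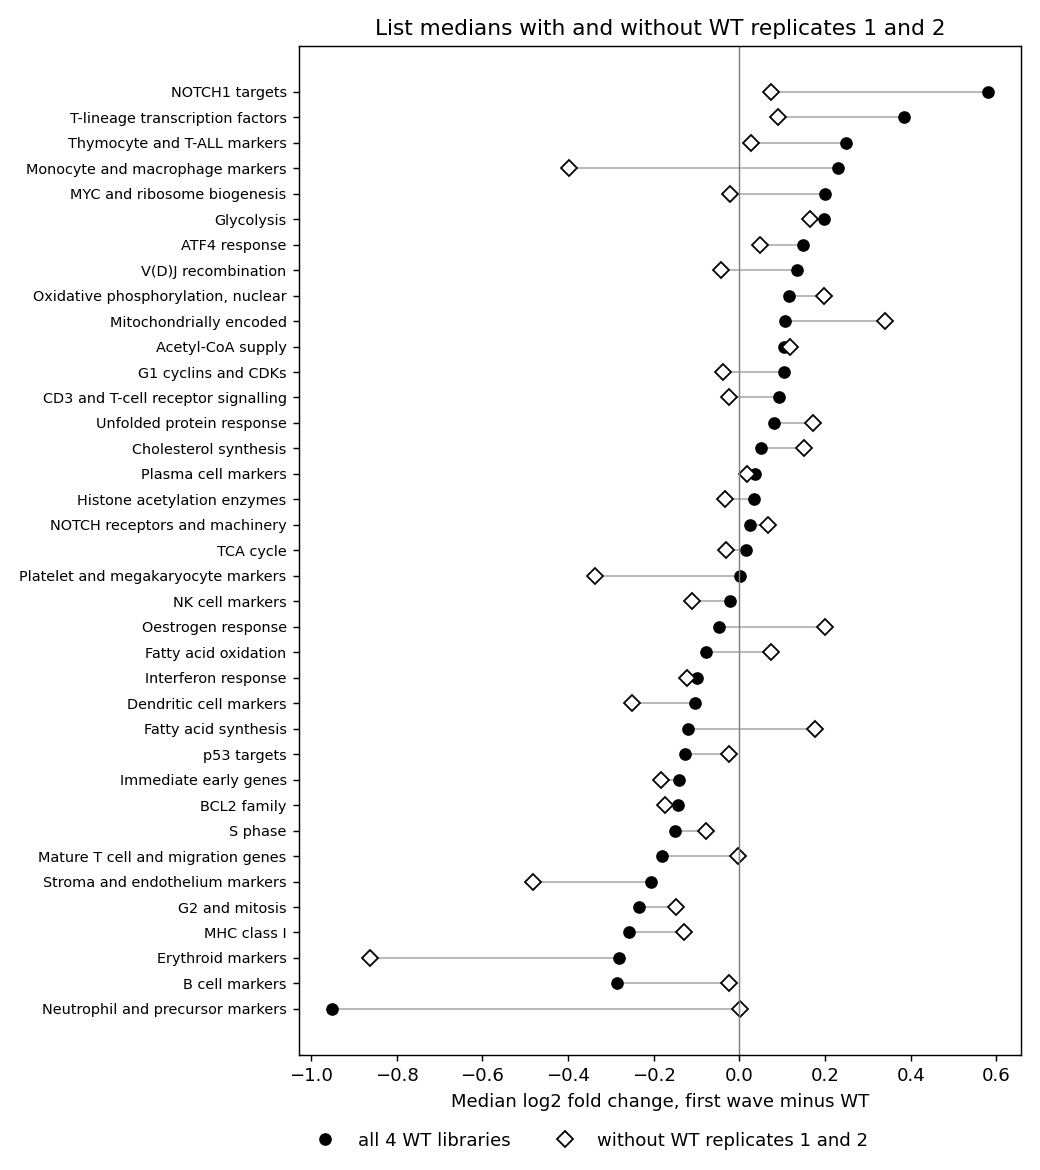
Median log2 fold change of the first wave against WT (x axis) for each of the 37 gene lists, with all 4 WT libraries (filled circles) and without WT replicates 1 and 2 (open diamonds). NOTCH1 targets go from 0.58 to 0.08 and neutrophil markers from -0.95 to 0.00, and 12 of the 37 medians change sign.

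Of 30 measured genes of G2 phase and mitosis 24 were negative in the first wave against WT, 5 had an unadjusted limma p under 0.05 in the lower direction, and 4 did not overlap with WT, beside 3.6% of all genes for either count. The median was -0.23, and -0.15 without WT replicates 1 and 2. As a list they overlapped between groups: the median log2 difference from the 10-library mean was -0.29, -0.05 and 0.09 in the first-wave libraries and 0.20, 0.23, 0.15 and -0.09 in WT, so that first-wave replicate 1 was lowest and first-wave replicates 2 and 3 lay above WT replicate 4. Aurkb, the kinase of the chromosomal passenger complex, had 361, 333 and 354 in the first wave and 528, 658, 481 and 478 in WT. Cenpf, a kinetochore and nuclear matrix protein, had 1182, 1440 and 1202 in the first wave and 1795, 2537, 1645 and 1993 in WT. Cenpe, the kinetochore motor, had 1357, 1075 and 1083 in the first wave and 1646, 1712, 1448 and 1763 in WT. All 3 genes had every first-wave library below every WT library, with differences of -0.61, -0.63 and -0.49 (limma adjusted p = 0.617 for each) and of -0.46, -0.51 and -0.46 without WT replicates 1 and 2.

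Many mitotic genes share short promoter elements, the CHR, bound by the DREAM and B-MYB complexes, and CCAAT boxes, bound by NF-Y. In the RefSeq promoters of GRCm38.p6, which run from 250 bases before to 50 bases after a gene's start and were matched for 10408 of the 14286 genes tested, 18 of 24 promoters of the G2 and mitosis list (75%) held the letters TTTGAA on either strand, against 13.4% of all, and 19 of 24 (79.2%) held CCAAT, against 39.5%. The promoters of Cenpf (chr1:189688037-189688336, minus strand) and Cenpe (chr3:135212313-135212612, plus strand) are shown 5′ to 3′ along the gene because these 2 members had no overlap between groups, with TTTGAA and CCAAT in capitals.
Cenpf: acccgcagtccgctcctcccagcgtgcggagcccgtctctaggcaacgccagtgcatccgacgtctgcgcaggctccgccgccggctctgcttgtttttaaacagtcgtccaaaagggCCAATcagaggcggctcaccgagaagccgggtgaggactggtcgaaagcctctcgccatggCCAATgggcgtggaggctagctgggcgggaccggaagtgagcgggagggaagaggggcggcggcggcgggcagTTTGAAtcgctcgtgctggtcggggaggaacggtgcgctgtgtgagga
Cenpe: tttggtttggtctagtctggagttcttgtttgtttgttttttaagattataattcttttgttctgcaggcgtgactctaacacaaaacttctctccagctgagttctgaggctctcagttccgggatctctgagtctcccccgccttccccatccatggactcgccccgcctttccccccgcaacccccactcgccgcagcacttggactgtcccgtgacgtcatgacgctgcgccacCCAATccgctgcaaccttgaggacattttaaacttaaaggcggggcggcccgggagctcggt
The Cenpf promoter holds 2 CCAAT matches and 1 TTTGAA match near the start site, and the Cenpe promoter holds 1 CCAAT match and 0 TTTGAA matches. Such a match describes the sequence and shows no binding.

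For NOTCH1 targets the letters TGGGAA, the core read by RBPJ, were searched on both strands in the same way. They were found in 6 of 15 target promoters (40%) and in 23.1% of all 10408. The promoter of Ptcra (chr17:46763663-46763962, minus strand) is shown because Ptcra was among the targets with the smallest p-values, with its 2 matches in capitals.
Ptcra: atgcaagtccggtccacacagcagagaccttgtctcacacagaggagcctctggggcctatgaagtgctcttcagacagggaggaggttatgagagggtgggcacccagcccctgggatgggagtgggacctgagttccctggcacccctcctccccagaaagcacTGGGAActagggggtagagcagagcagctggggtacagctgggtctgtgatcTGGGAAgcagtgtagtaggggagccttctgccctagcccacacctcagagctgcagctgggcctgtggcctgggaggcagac
Nrarp, whose values split WT most clearly among the named targets, had 0 matches in its promoter window.

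S phase genes had a median of -0.15 over 26 members, 18 of them negative, and of -0.08 without WT replicates 1 and 2. Uhrf1, which keeps DNA methylation through replication, had 2927, 2685 and 3387 in the first wave and 4071, 3625, 3639 and 3636 in WT, and Lig1, the replicative DNA ligase, had 665, 462 and 644 against 852, 789, 737 and 718. Neither gene's groups overlapped, and the limma adjusted p was 0.617 for both. The G1 list, of 16 members, had a median of 0.10 that turned to -0.04 without WT replicates 1 and 2. In it E2f2, an activator of replication genes, had 488, 564 and 607 in the first wave and 1071, 823, 938 and 814 in WT. Ccnd1, cyclin D1, had 80.5, 118 and 138 in the first wave and 78.8, 63.8, 33.8 and 55.1 in WT, the highest WT library lying just under the lowest first-wave one. The MYC and ribosome biogenesis list had a median of 0.20 over 25 members, and -0.02 without WT replicates 1 and 2.

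Among the stress and survival lists the medians were small. They were 0.08 for the unfolded protein response (19 members), 0.15 for the ATF4 response (16), -0.13 for p53 targets (17) and -0.14 for the BCL2 family (12), and 0.17, 0.05, -0.02 and -0.17 without WT replicates 1 and 2. Bcl2l2, which encodes the survival protein BCL-W, had 83.6, 88.6 and 114 in the first wave and 130, 124, 165 and 222 in WT, without overlap and with a difference of -0.72 (SE 0.31) that was -1.01 without WT replicates 1 and 2. Bad, a death-promoting member, had 44.3, 40.6 and 20.97 in the first wave and 22.3, 7.002, 10.8 and 19.4 in WT, with WT replicate 1 overlapping. Tnfrsf10b, a death receptor, had 183, 164 and 225 against 334, 321, 229 and 336. Genes tied to oestrogen response, listed because tamoxifen acts on its receptor, had a median of -0.05 over 8 members and 0.20 without WT replicates 1 and 2. Of the 8, 3 were positive and 5 negative. Myb, described above among the T-lineage factors, is also on this list and had its smallest p-value, with a difference of 0.45 and no overlap. Xbp1 was higher by 0.39, with overlap. Nrip1, a corepressor of nuclear receptors, had 2707, 2799 and 2805 in the first wave and 4536, 3306, 3945 and 3260 in WT, a difference of -0.43 (SE 0.20).

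MHC class I genes had a median of -0.26 over 16 members, 11 of them negative, and -0.13 without WT replicates 1 and 2. H2-Q7, which encodes the non-classical molecule Qa-2 and lies at chr17:35439155-35443773 (GRCm38), had 596, 653 and 712 in the first wave, 1180, 1445, 867 and 1181 in WT and 220, 188 and 204 in the second wave. The first wave lay below all of WT and above all of the second wave. Its difference from WT was -0.82 (SE 0.20, limma adjusted p = 0.617), and the second wave fell a further -1.67 below it (limma adjusted p = 0.00765). H2-Q7 has near-identical neighbours, so its count depends on how reads were shared among them. H2-D1, a classical class I gene, had 813, 556 and 692 in the first wave and 1256, 1147, 1017 and 778 in WT, while H2-T24 was higher, at 334, 393 and 349 against 182, 190, 245 and 306. Interferon response genes had a median of -0.10 over 24 members, and -0.12 without WT replicates 1 and 2, with Stat2 at 145, 96.9 and 124 against 201, 305, 165 and 251. Immediate early genes had a median of -0.14 over 18 members, and -0.18 without WT replicates 1 and 2, and Nr4a1, which responds to antigen receptor signals, had 336, 233 and 233 in the first wave and 89.4, 112, 181 and 132 in WT.

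Marker genes matched the labelled tissue, a spleen filled by immature T cells. The summed normalized count of 20 thymocyte and T-ALL markers was 114192 to 130905 in the first wave and 68994 to 114308 in WT, with WT replicates 1 and 2 at 68994 and 71401. Of these 20 markers 19 were positive, with a median of 0.25 that was 0.03 without WT replicates 1 and 2. Neutrophil and precursor markers went the other way in the same 2 libraries. Their sum over the 19 of 20 listed genes in the table was 536 to 730 in the first wave, 2732 and 1728 in WT replicates 1 and 2, and 457 and 687 in WT replicates 3 and 4. Elane, neutrophil elastase, had 1.23, 0 and 0 in the first wave and 150, 69.8, 4.93 and 0 in WT, and Prtn3 and Ctsg were at 0 in all first-wave libraries. The neutrophil median of -0.95 over 14 members became 0.00 without WT replicates 1 and 2. These marker levels moved with the NOTCH1 target and T-lineage values across WT, and their part in those values was not tested. The thymocyte list shares Ptcra with the NOTCH1 targets and Bcl11b with the T-lineage factors, so part of that likeness is built in.

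Dendritic cell markers were lower in the first wave in their sum, at 702 to 791 against 798 to 1149 in WT, a narrow gap. This sum includes the MHC class II genes H2-Aa, H2-Ab1 and H2-Eb1, and without them the sums of the groups overlapped. Of 11 measured members 8 were negative and 3 positive. Their median was -0.10, and -0.25 without WT replicates 1 and 2. H2-Aa, an MHC class II chain, had 256, 191 and 269 in the first wave and 357, 303, 388 and 476 in WT (difference -0.67, SE 0.23, limma adjusted p = 0.617). Batf3 was at 0 in all first-wave libraries, which alone does not tell them from WT. B cell markers summed to 1812 to 2192 in the first wave and 1909 to 2500 in WT. Of 12 measured B cell markers 8 were negative and 4 positive, with a median of -0.29 that was -0.03 without WT replicates 1 and 2. Pax5, the B-lineage factor, had 20.5, 25.3 and 2.91 against 64.4, 73.2, 31.8 and 104. Cr2, which is also on the NOTCH1 target list, went the other way. It was at 183, 115 and 87.0 in the first wave and 33.3, 26.4, 90.2 and 128 in WT, with overlap. The part of these cells in the MHC values was not tested. Erythroid markers varied within each group, with a sum of 12195 to 29498 in the first wave and 11164 to 40830 in WT. Their median was -0.28 over 20 members and -0.86 without WT replicates 1 and 2.

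The remaining cell lists overlapped in their sums. Monocyte and macrophage markers summed to 2175 to 2396 in the first wave and 1337 to 2819 in WT, and their median of 0.23 over 14 members turned to -0.40 without WT replicates 1 and 2. Sums were 928 to 1097 against 903 to 1195 for NK cells, 181 to 385 against 228 to 424 for platelets and megakaryocytes, 1734 to 2165 against 1578 to 2086 for stroma and endothelium, 2612 to 3304 against 1835 to 3702 for plasma cells, and 9104 to 11810 against 7475 to 13264 for mature T cell and migration genes. Itga2b, the platelet integrin chain, had 2.53, 2.68 and 9.27 in the first wave and 31.1, 27.7, 17.9 and 33.5 in WT, a difference of -2.45 (SE 0.70, limma unadjusted p = 0.00359, adjusted p = 0.617). All 7 of these values are low, and the list's median was 0.00 over 7 members and -0.34 without WT replicates 1 and 2.

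**Figure D4:**
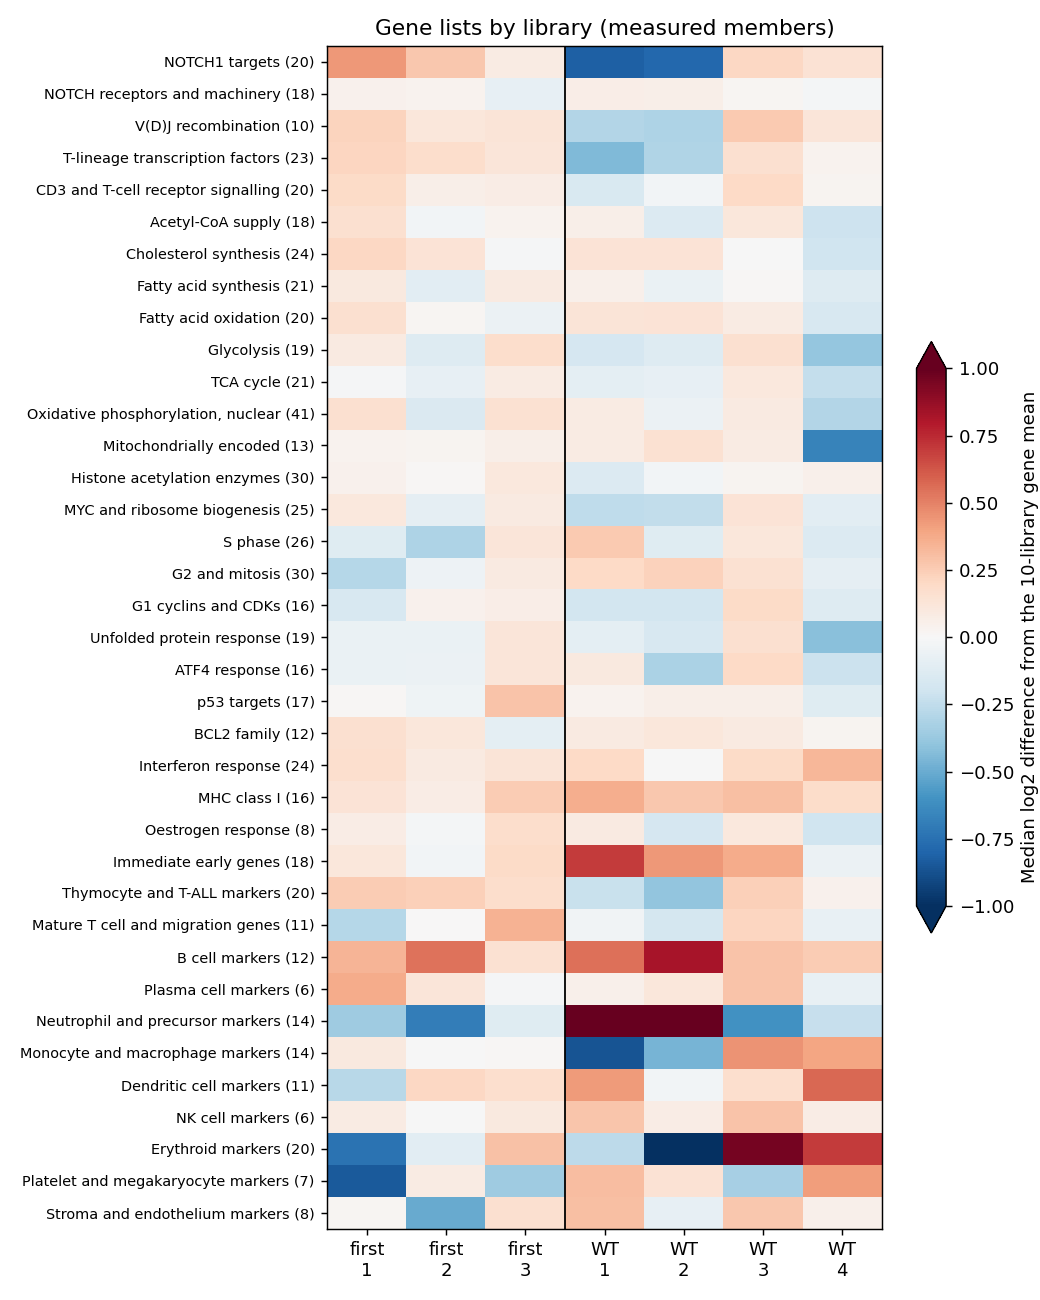
Each cell is the median over a list's measured members (their number in brackets) of the log2 difference between 1 library and the gene's mean over the 10 survival libraries, for the 3 first-wave and 4 WT libraries; colours are capped at -1 and 1. WT replicates 1 and 2 are low for NOTCH1 targets and T-lineage factors and high for neutrophil markers, and WT replicates 3 and 4 resemble the first wave in these rows.

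Against the second wave, the first wave differed in 17 genes past the limma threshold, with 2 higher in the second wave (0.014%) and 15 lower (0.105%). In 11 of the 17 the first wave overlapped WT. Nlrc5, the transactivator of MHC class I genes, had 531, 483 and 368 in the first wave, 480, 485, 446 and 376 in WT, and 117, 92.6 and 158 in the second wave, a difference between waves of -1.92 (limma adjusted p = 0.00912). Tubb2b, a beta-tubulin, had 953, 848 and 744 in the first wave, 823, 694, 923 and 752 in WT, and 210, 150 and 296 in the second wave. For both genes the first-wave values lay within or near the WT range, and those of the second wave did not.

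In the other 6 of the 17 the first wave did not overlap WT, beside 4.4% of all genes in the higher and 3.6% in the lower direction. The 17 were picked with the same first-wave values that enter this count. Ccnd1, Cd200, Gpr83, Hsd17b11 and Syt14 were higher than WT and H2-Q7 was lower, none past the adjusted threshold. Ccnd1 rose in the second wave to 722, 573 and 324, by 2.21 on the log2 scale over the first wave (limma adjusted p = 0.0444). Cd200, an immunoglobulin-family ligand that restrains myeloid cells, had 164, 91.1 and 179 in the first wave, 22.1, 62.1, 55.4 and 86.3 in WT, and 3.28, 8.74 and 21.5 in the second wave, where it fell by 3.84 on the log2 scale (limma adjusted p = 0.0407). Syt14, a synaptotagmin, had 1091, 1058 and 750 in the first wave, 670, 692, 646 and 740 in WT and 129, 255 and 133 in the second wave. The count of 17 ranged from 1 to 39 when single libraries were left out, with 1 gene left without first-wave replicate 1 or 2.

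**Figure D5:**
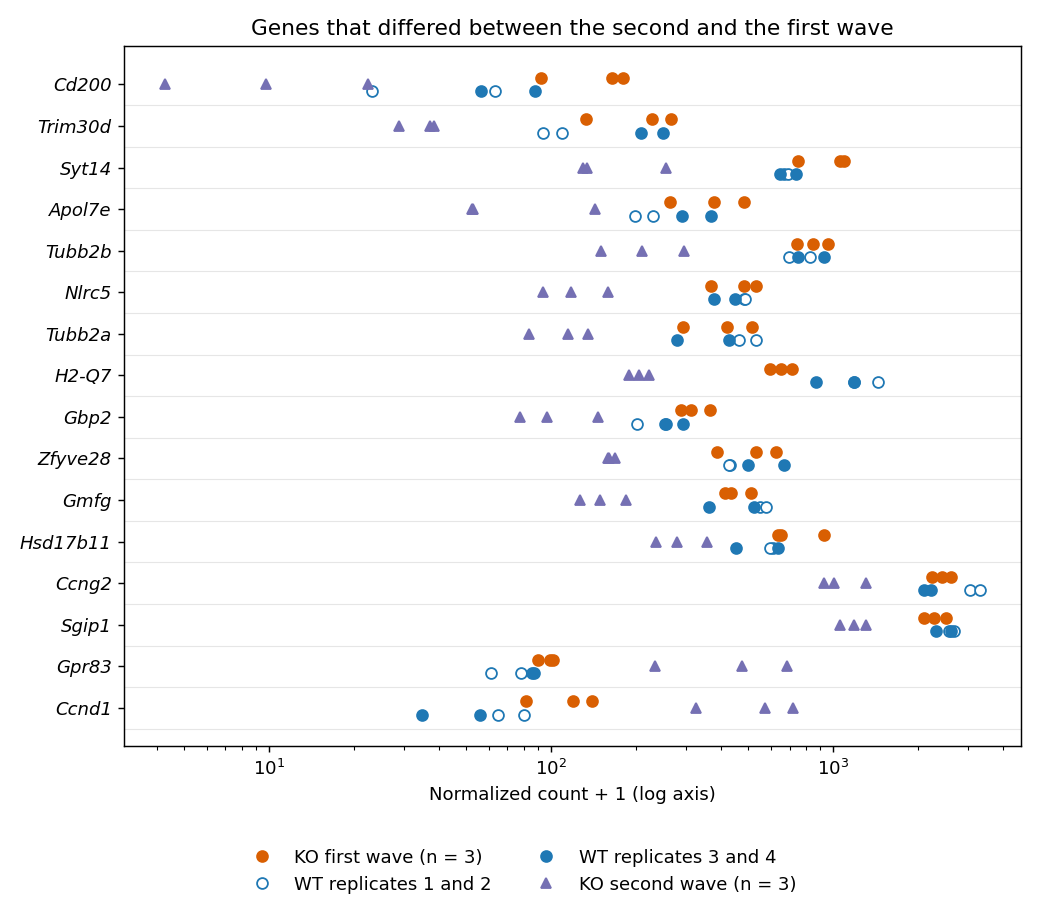
Normalized count + 1 (x axis, log scale) of 16 of the 17 genes that differed between the second and the first wave; each point is 1 library. First-wave points (orange) lie within or near the WT points in most rows, and second-wave points (triangles) lie apart, higher for Ccnd1 and Gpr83 and lower for the rest.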

How the data were processed

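RNA was measured in bulk leukaemic spleens by strand-specific sequencing, per the labels' protocols. Per the submitters' processing notes, reads were quantified with kallisto 0.44.0 against GRCm38 and scaled with DESeq; the DESeq version, transcript annotation, gene filter and strand setting of counting are not given in these sources. The deposited values are normalized counts, a signal that is never negative, which need not be whole: 55.6% to 63.1% of values under 8 reads lay within 0.02 of a whole multiple of 1 read, so no count model was run. Library totals and estimated reads are given above, and these depths make values of a few counts imprecise.

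Values were analysed as log2(value + 1) with limma 3.58.1 in R 4.3.3 (lmFit, eBayes with a trend, Benjamini-Hochberg over 14286 genes, threshold 0.05). The 3 first-wave, 3 second-wave and 4 WT libraries, grouped by their titles, shared 1 spread; Acly was also tested by exact permutation. Named genes were Acly, the 10 highest and 10 lowest by log2 fold change (no overlap, unadjusted p under 0.05, a group mean of 100 or more on the higher side), the 10 smallest p-values, and 3 members of each of 37 lists, without predicted genes, pseudogenes and receptor segments. Members and lists were chosen with earlier results of these data known. All 18953 symbols were found in the GENCODE annotation for GRCm38, from which gene coordinates come; promoters are RefSeq's. The script was tested on simulated data. Alternatives covered the pseudocount, filter, moderation, scaling, library weights, replicate block and left-out libraries. The acute libraries were not used here, and 1 gene that differed between the waves is not reported here.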

Additional observations from a re-analysis of the deposited data

Results flagged for a closer look

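Among the 4 WT libraries, 6 of 143 named genes had 1 library far from the other 3 on the log2 scale by Dixon's gap rule, while chance flags about 1 in 20 groups. WT replicate 3 stood apart in 5 of them, with normalized counts of 2612 for Cd3g, 21.3 for Col1a1, 88.9 for Cox6b1, 119 for Gstt3 and 229 for Tnfrsf10b. WT replicate 1 stood apart for Uhrf1, at 4071. For Gstt3, Tnfrsf10b and Cox6b1 that library was the WT library nearest to the first wave.

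The second wave differed from the first in 17 genes by the limma test of the difference itself, with Benjamini-Hochberg adjustment over all genes, and each log2 difference is second minus first wave. The second wave was higher for Ccnd1, by 2.21, and Gpr83, by 2.13, in 3 of 3 libraries each. Among the genes lower in 3 of 3 second-wave libraries, the differences were -3.84 for Cd200, -2.54 for Trim30d, -2.54 for Syt14 and -2.31 for Apol7e. Next came the tubulin genes Tubb2b at -2.00 and Tubb2a at -1.88, which are close copies of each other, and Nlrc5 at -1.92. H2-Q7 differed by -1.67, Gbp2, an interferon-induced GTPase, by -1.64, Zfyve28 by -1.64 and Gmfg by -1.57. The differences were -1.35 for Hsd17b11, -1.18 for Ccng2 and -0.96 for Sgip1. Adjusted p-values of the 17 in limma ran from 0.00199 for Syt14 to 0.0444 for Ccnd1, and the number of genes past the threshold depended on single libraries, as given below.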

How the results depend on the processing

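Among 22 alternatives, the difference of Acly stayed negative and lay between -1.29 and -1.15, with limma adjusted p-values from 0.0113 to 0.697. Acly was the 1 gene past the threshold with a pseudocount of 10 (-1.21), no filter (-1.22), a mean of at least 50 (-1.22), robust moderation (-1.22), quantile normalization (-1.22) and library weights (-1.25). Leaving out single libraries gave 0 to 3 genes, and Acly passed only without second-wave replicate 3 (-1.22), while it had an adjusted p of 0.595 without first-wave replicate 1; leaving out WT replicates 1 and 2 together gave 3 genes, not Acly. The second-minus-first count of 17 became 1 without the trend, 45 with library weights, 2 with the replicate block, and 1 to 39 without single libraries. Replicate numbers did not pair libraries (correlations of deviations -0.02, 0.05 and 0.04); the replicate block, which drops WT replicate 4, gave Acly -1.28 (adjusted p = 0.191) and 0 genes. Leaving out the second-wave libraries singly was chosen after seeing the data. WT replicates 1 and 2 were left out together because they stood apart in these same data. The cause of these moves was not tested. Of 3105 values of the other named genes under the alternatives, 0 passed the threshold and 28 had the opposite sign. Depth limits genes with a few counts.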

Other observations

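T-cell receptor beta V segments, which can differ between clones of a T-cell leukaemia but do not by themselves define them, were much alike in the first wave and most of WT. Trbv26 made up 74.4%, 65.4% and 65.8% of all Trbv counts in first-wave replicates 1 to 3 and 73.0%, 74.0% and 60.7% in WT replicates 1, 2 and 4. WT replicate 3 had 21.8% Trbv26 and 55.8% Trbv5, a segment at 0.61% or less in the other 6 libraries of the comparison. In the second wave Trbv26 took 26.7%, 53.4% and 1.31%, Trbv1 took 95.04% in replicate 3, and Trbv17 took 27.7% in replicate 1. WT replicates 1 and 2, which stood apart in overall expression, thus had the same leading V segment as the first wave, and WT replicate 3, which was close to the first wave in overall expression, had another. Segment counts from short reads can be shared between similar segments, and no test was run.

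A few genes with small counts had wide gaps between the first wave and all 4 WT libraries, and the 3 named here were chosen after their values were seen. Cish, a feedback inhibitor of STAT5 signalling, had 11.9, 33.8 and 18.7 in the first wave and 70.1, 67.6, 61.0 and 59.8 in WT, a log2 difference of -1.66 (SE 0.54, limma adjusted p = 0.617). Il17f, a cytokine gene, had 7.70, 7.16 and 1.34 against 44.1, 22.8, 24.7 and 25.2. Mmp19, a matrix metalloproteinase, had 9.76, 12.9 and 16.5 against 53.6, 72.8, 38.4 and 59.1. All 3 kept differences below -1.5 without WT replicates 1 and 2, at -1.57, -2.24 and -1.82. Their sign could not change, because the 3 were chosen for lying below all 4 WT libraries. The second wave had Cish values of 66.5, 17.1 and 78.5 that reached the WT level in 2 of 3 libraries.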
